A study of Homo sapiens with 8 samples.

Results

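The sort of COLO741 cells on ABCB5 is described here, a comparison of the array labelled ABCB5-positive with the array labelled ABCB5-negative of that cell line. These are 2 of the 8 arrays of the series, picked by their labels alone. The other 6 arrays hold the same pair of populations from the lines SW620, HT29 and HCT116 and serve only to show how far apart 2 sorted arrays of 1 line lie. All 4 are established human tumour lines whose labels give colon carcinoma as the cell type, and for SW620 the text on the series' design has SW480 instead, which was not settled. Cells of every group grew in RPMI medium with fetal bovine serum, penicillin and streptomycin. They were separated by fluorescence-activated sorting with a monoclonal antibody to ABCB5, and their total RNA was amplified and hybridised to the Affymetrix Human Gene 1.0 ST array, which reads each gene with several short probes. Each population of each line has 1 array. Nothing in the labels says that a population was sorted more than 1 time, so the COLO741 difference has no replicate and carries no p-value of its own.

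Levels are log2 expression values, so a difference of 1 is a 2-fold change. Every difference is the labelled-positive array minus the labelled-negative array. Of 18417 genes with a probe set naming that gene alone, 16910 were described and 1507 with a mean level under the median of the olfactory receptor probe sets were left out. Olfactory receptors are used in the nose and serve as a measure of background. Of the single levels of their 360 probe sets on the 8 arrays, 95% were below 7.50, which is called the background level. By that mark 12922 genes on the labelled-positive and 12885 on the labelled-negative COLO741 array were above background.

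ABCB5 is a membrane transporter of the ATP-binding cassette family, which moves molecules across membranes with energy from ATP, and it is known from pigment cells, melanoma and stem cells of the eye and skin. Pigment cells carry the factors MITF and SOX10, which switch on the enzymes and structural proteins of the melanosome, the organelle that makes melanin. Melanoma cells can hold a pigmented state with these genes on, or an undifferentiated, invasive state in which pigment genes are lower and receptors such as AXL and matrix genes are higher.

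The line's markers went against its cell type label. Of 8 melanocyte markers 7 were measured, and all 7 were above background on both COLO741 arrays. The melanosome protein gene PMEL had a level of 14.39 on the labelled-positive and 14.49 on the labelled-negative array, MITF had 12.73 and 12.79, and the melanin enzyme gene TYR had 12.06 and 11.99. The median of the 7 markers was 12.73 on the labelled-positive and 12.79 on the labelled-negative array, against medians of 5.76 to 6.44 on the arrays of the other lines. Of 8 markers of colon epithelium 3 were above background on each COLO741 array, with a median of 7.15 on the labelled-positive and 7.40 on the labelled-negative array, against 8.89 to 13.10 on the arrays of the other lines. The adhesion gene EPCAM, which colon epithelium carries, had 5.36 on the labelled-positive and 6.43 on the labelled-negative array, both below background.

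Among markers of other cells that a culture or a sort could hold, the pan-leukocyte gene PTPRC had 4.99 on the labelled-positive and 4.85 on the labelled-negative array. The endothelial gene PECAM1 had 6.37 and 6.26 on the same arrays, and the fibroblast gene DCN 4.86 and 4.97, so that all 3 were at background on both. Of 6 leukocyte markers 2 were above background on each array, CD68 and TYROBP. CD68, a lysosomal protein gene of macrophages that other cells also express, had 12.17 on the labelled-positive and 13.03 on the labelled-negative array. The log2 of the summed level was 12.45 on the labelled-positive and 13.20 on the labelled-negative array for the leukocyte markers, and 12.30 and 12.18 for the 7 markers of fibroblasts and endothelium, of which LUM was bright on both at 12.08 and 11.94. What part RNA of other cells has in the differences given here was not tested.

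The ABCB5 transcript ran against the labels of the sort. Its level was 8.14 on the array labelled ABCB5-positive and 9.42 on the array labelled ABCB5-negative, a difference of -1.28, or 2.42-fold less where the label says positive. In the other lines all 6 levels lay between 5.24 and 5.69, at background. The antibody selects on the protein at the cell surface and the array measures the transcript, so this does not show which label is right. Every direction given for COLO741 rests on the labels, and with exchanged labels each sign would turn.

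By the number of genes and by the spread of the difference, the COLO741 arrays lay farther apart than those of each other line. At least 2-fold higher on the labelled-positive array were 231 genes (1.37% of the genes described), and 44 (0.26%) were at least 2-fold lower. The SW620 pair had 88 higher (0.52%) and 16 lower (0.0946%), the HT29 pair 46 (0.272%) and 4 (0.0237%), and the HCT116 pair 4 (0.0237%) and 1 (0.00591%). Over genes the difference had a standard deviation of 0.32 for the COLO741 pair, against 0.24 for SW620, 0.20 for HT29 and 0.15 for HCT116. Pearson's correlation between the arrays of a pair, over genes, which are no independent replicates, was 0.993 for COLO741, 0.994 for SW620 and 0.996 for both HT29 and HCT116.

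**Figure D1:**
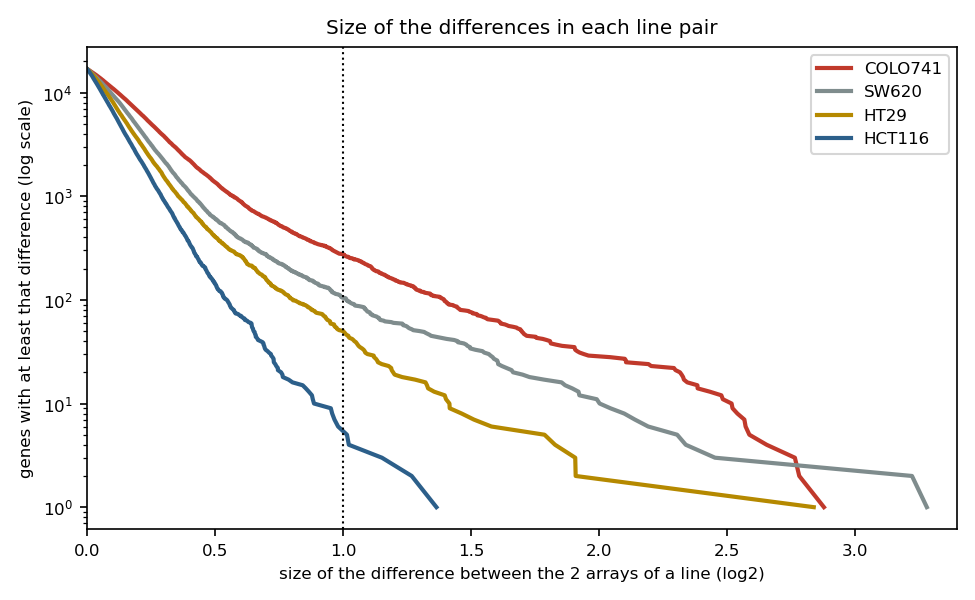
Number of genes (vertical axis, log scale) whose 2 arrays differ by at least the size on the horizontal axis (log2), for each line pair; the dotted line marks 2-fold. The COLO741 curve lies above the others at 2-fold, with 275 genes, against 104 (SW620), 50 (HT29) and 5 (HCT116), while the single largest difference, 3.28, is in SW620 and that of COLO741 is 2.88.

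The large COLO741 differences leaned to the higher side, as did those of each other pair in the counts above. Of the 231 genes at least 2-fold higher, 227 (1.34%) differed by more than in each of the other pairs, as did all 44 of the lower genes (0.26%). Genes picked for their size in another pair did likewise. In SW620 these were 87 of 88 higher and 14 of 16 lower genes, in HT29 44 of 46 and 4 of 4, and in HCT116 4 of 4 and 1 of 1. Exceeding the other pairs is thus no trait of COLO741. On the higher side 213 of 231 had the brighter array above background, 153 had both arrays above it, and 65 were below it on all 6 arrays of the other lines. On the lower side these numbers were 41, 35 and 19 of 44. Over all genes without a size limit the balance was the other way, with 45.6% higher and 54.4% lower, and a median of -0.02.

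Among the genes highest on the labelled-positive array, PSAT1 led. It encodes phosphoserine aminotransferase, an enzyme of serine synthesis, and had a level of 11.47 on the labelled-positive and 8.59 on the labelled-negative array, a difference of 2.88 or 7.36-fold. In the other 3 lines the PSAT1 difference was 0.20, -0.07 and -0.01 (SW620, HT29 and HCT116, the order of all such triplets). SLC7A11, the cystine carrier, another gene that ATF4 can switch on, had 13.30 on the labelled-positive and 12.16 on the labelled-negative array, a difference of 1.14. The list of 33 serine synthesis and ATF4 target genes did not lean as a whole, with 19 higher, 14 lower and a median of 0.10, inside the range of -0.04 to 0.16 in the other pairs.

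Receptors and secreted factors stood beside PSAT1. CSF2RA, a subunit of the receptor for the growth factor GM-CSF, had 11.26 on the labelled-positive and 8.48 on the labelled-negative array, a difference of 2.78. NRP1, a coreceptor for semaphorins and VEGF, had 11.25 and 8.67 on these arrays, a difference of 2.57, against -0.92, 0.72 and -0.22 in the other lines. The ligand gene TGFB2 had 11.16 and 8.59 on them, a difference of 2.57, against -0.80, 0.65 and 0.11 in the other lines. For these genes the pairs of SW620 and HT29 moved apart from each other as well, though by far less than the COLO741 pair. IL1B, the gene of an inflammatory cytokine, had 10.78 on the labelled-positive and 8.40 on the labelled-negative array, a difference of 2.39.

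The other genes of the top 15 were of several kinds. NLGN4X, a neuroligin of cell adhesion, had 10.57 on the labelled-positive and 7.91 on the labelled-negative array, a difference of 2.66. ATL3, a GTPase that shapes the endoplasmic reticulum, had 11.19 and 8.65 on them, a difference of 2.54, and CPA4, a carboxypeptidase, 10.56 and 7.97, a difference of 2.59. MAGEC2, an antigen of testis and tumours from a family of similar genes, had 10.23 and 7.80, a difference of 2.43. The remaining 6 had a labelled-negative level under the background level, so that the size of their difference is uncertain. They were the peptidase-family gene PM20D2 (10.17 on the labelled-positive, 7.41 on the labelled-negative array), the homeodomain gene PBX3 (9.99 and 7.46), the mineralisation inhibitor MGP (8.81 and 6.29), the glycolipid enzyme gene UGT8 (9.84 and 7.36), SYTL5 (9.28 and 6.80), whose family binds RAB27A on vesicles, and ZEB1 (9.81 and 7.43). ZEB1 is a repressor of epithelial genes and, in melanoma, a factor of the undifferentiated state.

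On the lower side differences were smaller, with 2.29-fold to 3.89-fold among the 15 largest. PCDHB8, a protocadherin of a clustered family, had 5.96 on the labelled-positive and 7.92 on the labelled-negative array, a difference of -1.96 whose labelled-positive level was below background. IRF4 had 8.67 and 10.37 on them, a difference of -1.71 or 3.26-fold lower. This transcription factor of lymphocytes is also a partner of MITF in pigment cells, and its difference was 0.11, 0.44 and 0.26 in the other lines. CDH3, the gene of P-cadherin, had 9.87 on the labelled-positive and 11.38 on the labelled-negative array (-1.51), and DNAJC15, a mitochondrial co-chaperone, 9.73 and 11.19 (-1.45). The homeobox gene HOXB13 had 9.08 and 10.48 on these arrays (-1.40), and SNX3, a sorting protein of endosomes, 10.23 and 11.42 (-1.19).

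The other lower genes of the 15 had differences of -1.20 to -1.39. They were MCF2, PCDH20, another protocadherin, the adaptor gene DOK5, AFG1L, STK32A, NAP1L3, KU-MEL-3, the spliceosomal RNA gene RNU5B-1 and ABCB5 itself. All 30 genes differed by more than in each of the other pairs and by more than 99% of genes of like level in those pairs, a mark called the level-matched guide. They were picked for their large COLO741 difference, so passing these marks is no separate support. On at least 1 array of the other lines 11 of the 15 higher and 6 of the 15 lower genes were above background. For the rest, ABCB5 and IRF4 among them, the other pairs compare background values. Both COLO741 arrays were above background for 9 of the 15 higher and 13 of the 15 lower genes.

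**Figure D2:**
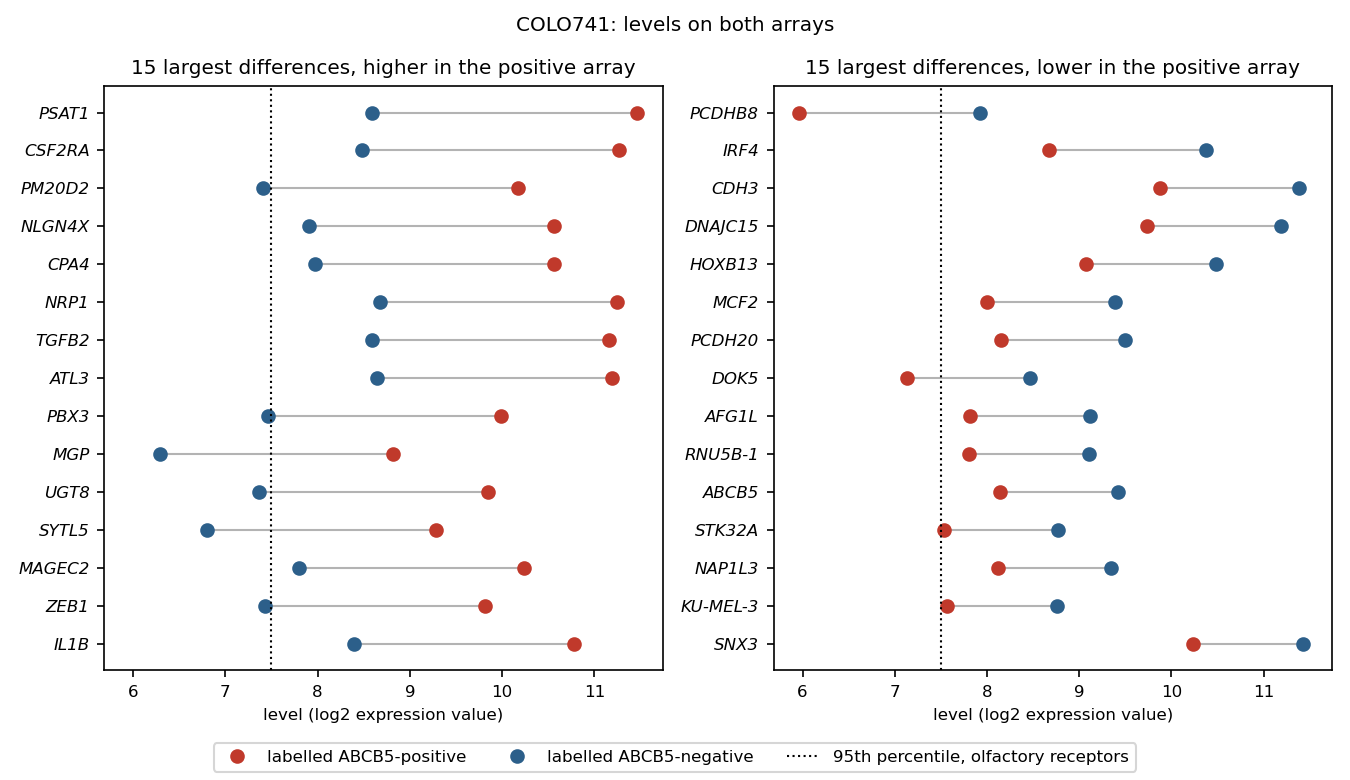
Level (log2 expression value) of the 15 genes most above and the 15 most below on the labelled-positive (red) against the labelled-negative (blue) COLO741 array; each point is 1 array and the dotted line is the background level of 7.50. The higher genes lie 2.39 to 2.88 apart, and 6 of them start under the background level.

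**Figure D3:**
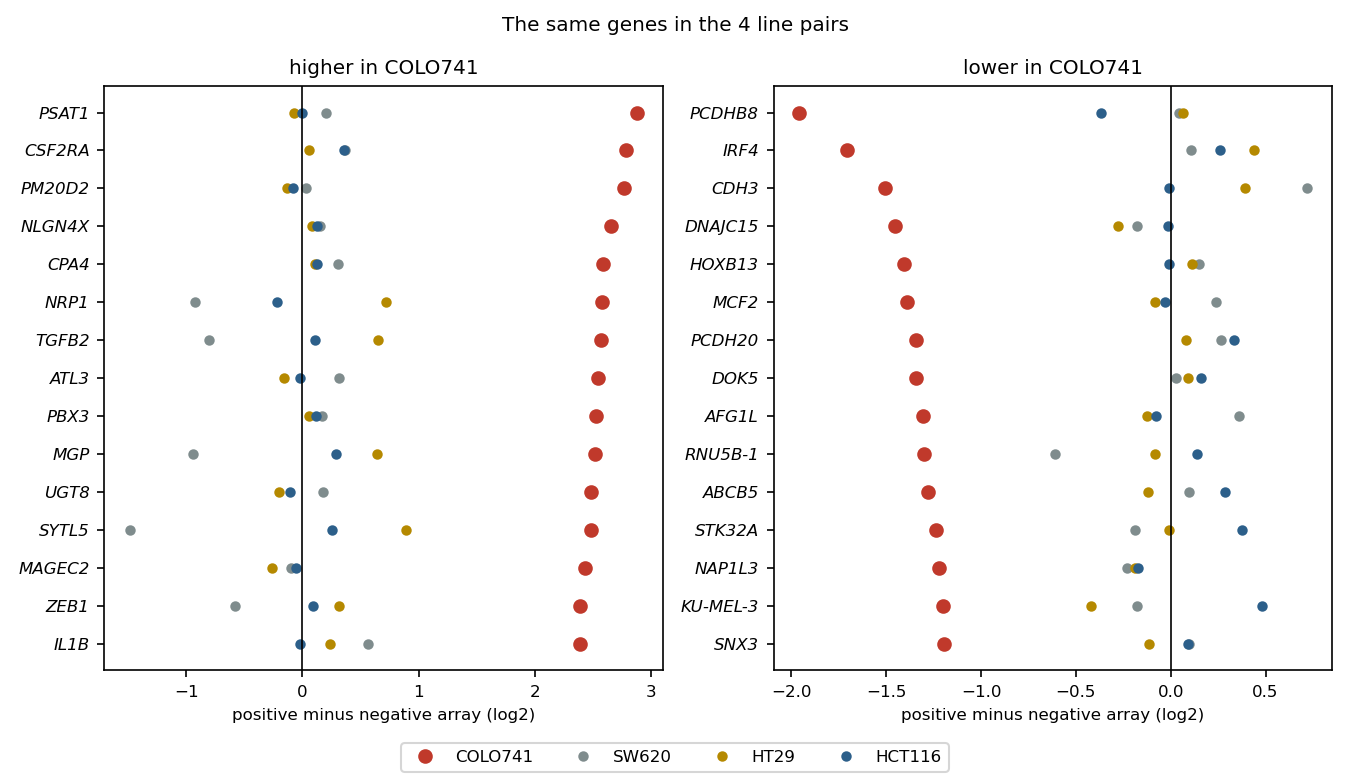
Difference of the same 30 genes (log2, positive minus negative array) in COLO741 (red) and the other 3 line pairs; each point is 1 pair. The genes were picked by their COLO741 difference, and the COLO741 points lie outside the other 3 in every case. SYTL5, MGP, NRP1 and TGFB2 also spread in SW620 and HT29.

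Whether the COLO741 difference was unlike that of the other lines was tested with limma, with the cell line as a block and the population effect of COLO741 set against the mean effect in the other 3 lines. By this test 52 genes (0.308% of 16910) had a COLO741 difference above that of the other lines and 5 (0.0296%) one below it, at a Benjamini-Hochberg adjusted p under 0.05. The lowest adjusted p from limma was 0.0129, and 2300 genes had an unadjusted p under 0.05. The COLO741 pair is assumed to vary like the other pairs, and only 2 residual degrees of freedom stand behind the test. The calls rest on the HCT116 pair: without it 0 genes passed, at a lowest adjusted p of 0.0527 from limma with 1834 genes at such an unadjusted p. Of the 57 genes, 56 also differed at least 2-fold in COLO741 itself, and 18 were below background on all 6 arrays of the other lines.

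Of the higher genes, PM20D2, NLGN4X, PBX3, PSAT1, MAGEC2 and CPA4 were among the 10 of smallest p, each with an adjusted p of 0.0129 from limma. The amino acid carrier SLC38A1 had 11.37 on the labelled-positive and 9.07 on the labelled-negative array and a difference from the other lines of 2.35 ± 0.12 (SE, limma adjusted p = 0.0129). GPC6, a cell surface proteoglycan, had 9.53 and 7.21 on these arrays, and the zinc finger genes ZNF37A 10.06 and 7.85 and ZNF597 8.59 and 6.48. The 5 lower genes were IRF4, DOK5, HOXB13, PCDH20 and IL6R. IL6R, the interleukin 6 receptor, had 10.63 on the labelled-positive and 11.61 on the labelled-negative array. IRF4, DOK5 and PCDH20, and NLGN4X, MAGEC2 and GPC6 of the higher genes, were at background on every array of the other lines, so for them the test set the COLO741 difference against differences between background values. ABCB5 did not pass, at -1.37 ± 0.19 (SE) and a limma adjusted p of 0.0777.

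Pigment genes were lower as a group, while the regulators of their lineage were divided in direction. Of 20 melanosome and pigment genes 16 were lower and 4 higher, with a median of -0.35, against 0.01 in SW620 and values still closer to 0 in HT29 and HCT116. Members such as TYR, TYRP1, MLANA and GPNMB were below background on every array of the other lines, while RAB27A and BACE2 were above it. For the dim members those pairs compare background values, so their medians near 0 are a weak comparison. Beyond the level-matched guide were 9 of the 20 on the lower side and 0 on the higher side, against 2.25% and 4.08% of all genes. OCA2, a melanosome membrane protein, had 12.10 on the labelled-positive and 13.05 on the labelled-negative array, a difference of -0.95. GPR143, a receptor within the melanosome membrane, had 8.24 and 9.21 (-0.96), and TRPM1, an ion channel gene, 7.53 and 8.56 (-1.02). RAB27A, which carries melanosomes to the cell edge, had 11.82 and 12.45 on these arrays (-0.63), and TYRP1, an enzyme of melanin synthesis, 13.69 and 14.30 (-0.61). Not all members shared this, since TYR had a difference of 0.07 and PMEL of -0.10.

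The regulators of the pigment cell lineage were divided, with 8 of 17 higher, 9 lower and a median of -0.07. IRF4 was the only one of them at least 2-fold apart. MITF, the master factor, differed by -0.07 and SOX10, at 11.36 on the labelled-positive and 11.52 on the labelled-negative array, by -0.17. PAX3, which acts upstream of MITF, had 10.51 and 9.99 on these arrays, a difference of 0.53, and TBX2 10.05 and 10.59, a difference of -0.54. Beyond the level-matched guide were IRF4, TBX2, ZEB2 at -0.35 and SNAI2 at -0.34, all of them lower. No member, PAX3 included, was beyond it on the higher side. Of all genes 2.25% were beyond it on the lower and 4.08% on the higher side. BCL2A1, a survival gene of the BCL2 family that MITF can activate in melanoma, had 8.73 and 9.77, a difference of -1.04.

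MITF binds the M-box, an E-box (CATGTG) within the letters TCATGTG. Promoters of pigment genes and of BCL2A1 are shown because the pigment group differed and some of its members carry this element, with matches on either strand in capitals. The sequences are from RefSeq (GRCh38.p14), 250 bases before to 50 after each gene's start, written in the direction of the gene.
TYRP1, chr9:12693135-12693434, plus strand: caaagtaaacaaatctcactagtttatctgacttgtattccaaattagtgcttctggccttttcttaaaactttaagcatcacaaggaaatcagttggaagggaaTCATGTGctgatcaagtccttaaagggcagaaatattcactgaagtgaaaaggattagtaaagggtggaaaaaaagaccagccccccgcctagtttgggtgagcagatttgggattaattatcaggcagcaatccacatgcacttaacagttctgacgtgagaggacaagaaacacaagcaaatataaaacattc
GPR143, chrX:9765798-9766097, minus strand: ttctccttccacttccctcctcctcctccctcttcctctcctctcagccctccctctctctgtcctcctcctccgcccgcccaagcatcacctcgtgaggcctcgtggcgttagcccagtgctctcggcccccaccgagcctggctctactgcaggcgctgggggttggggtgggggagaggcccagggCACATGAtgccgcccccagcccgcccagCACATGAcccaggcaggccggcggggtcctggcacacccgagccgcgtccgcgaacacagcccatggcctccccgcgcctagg
TYR, chr11:89177625-89177924, plus strand: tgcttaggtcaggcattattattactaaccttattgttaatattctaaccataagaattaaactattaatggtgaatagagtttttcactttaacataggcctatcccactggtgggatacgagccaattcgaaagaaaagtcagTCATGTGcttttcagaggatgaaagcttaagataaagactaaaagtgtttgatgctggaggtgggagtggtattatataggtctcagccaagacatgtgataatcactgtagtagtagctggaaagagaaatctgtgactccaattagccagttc
BCL2A1, chr15:79971147-79971446, minus strand: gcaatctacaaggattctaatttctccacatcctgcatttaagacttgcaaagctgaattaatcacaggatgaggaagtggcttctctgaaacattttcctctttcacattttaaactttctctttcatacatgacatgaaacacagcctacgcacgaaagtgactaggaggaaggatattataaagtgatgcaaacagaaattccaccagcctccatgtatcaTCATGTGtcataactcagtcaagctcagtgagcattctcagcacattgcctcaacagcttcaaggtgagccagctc
The M-box letters were in 5 of 15 pigment gene promoters with an entry (33.3%), against 274 of 13184 promoters of described genes (2.08%). They were in 3 of 30 promoters of genes at least 2-fold lower with the brighter array above background (10.0%) and 4 of 170 of such higher genes (2.35%). Carrying the letters did not go with the size of the difference in a simple way: GPR143 has 2 matches and differed by -0.96, TYR has 1 and differed by 0.07, and the promoters of OCA2 and TRPM1, at -0.95 and -1.02, have 0 in this window. A match is a string of letters and not a bound site.

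Genes of the undifferentiated melanoma state were mostly higher. Of 23 such genes 18 were higher and 5 lower, with a median of 0.33, against -0.02, 0.15 and 0.02 in the other pairs. TNC, the matrix protein tenascin C, had 11.99 on the labelled-positive and 10.19 on the labelled-negative array, a difference of 1.80. LOXL2, which crosslinks collagen, had 10.82 and 9.32 (1.51), and AXL, a receptor tyrosine kinase, 9.43 and 8.31 (1.12). AXL was higher in HT29 too, by 1.01. CCN2 and CCN1, targets of the YAP coactivator, differed by 1.13 and 0.76. Of the list's other members, VIM at 0.13, CD44 at 0.15 and JUN at 0.15 were near 0. WNT5A differed by 0.74 and EGFR by 0.51.

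Matrix, integrin and protease genes were higher in 28 of 37 cases, with a median of 0.35, against 0.06 in HT29 and values closer to 0 in SW620 and HCT116. The basement membrane collagen genes COL4A1 and COL4A2, which lie head to head and share a promoter, were both higher. COL4A1 had 9.52 on the labelled-positive and 8.37 on the labelled-negative array, and COL4A2 had 10.29 and 8.88. MMP16, a membrane-bound protease, had 9.54 and 7.44 on these arrays, its labelled-negative level below background, and the collagenase MMP1 had 9.28 and 7.82, a difference of 1.46. The integrin subunits ITGA3, ITGA6 and ITGB8 differed by 1.25, 0.66 and 0.66. TGM2, which crosslinks proteins, differed by 1.44 in COLO741 and by 0.83, 1.79 and 0.42 in the other lines, so that its COLO741 value lay inside their range.

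Receptor tyrosine kinases and their ligands were higher in 26 of 37 cases, with a median of 0.23, and 11 members were beyond the guide on the higher side and 0 on the lower, against 4.08% and 2.25% of all genes. The ligand gene HBEGF had 11.45 on the labelled-positive and 10.18 on the labelled-negative array, a difference of 1.27, while the other lines gave -0.52, -0.46 and -0.10. EPHA2, an ephrin receptor, had 10.82 and 9.78 (1.04), and VEGFC, a ligand of lymphatic vessels, 8.76 and 7.64 (1.12). KDR, a VEGF receptor, had 8.25 on the labelled-positive and 6.69, below background, on the labelled-negative array. Wnt and TGF-beta targets were higher in 21 of 30 cases with a median of 0.19. ID3 and ID1, inhibitors of basic helix-loop-helix factors, differed by 1.38 and 1.12, and AXIN2, a feedback gene of Wnt signalling, by -0.50.

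Inflammatory genes did not move as a block. Of 27 NF-kB targets and cytokines 16 were higher and 11 lower, with a median of 0.03, inside the range of the other pairs. The chemokine gene CXCL8 had 12.22 on the labelled-positive and 11.04 on the labelled-negative array, a difference of 1.18, and LIF differed by 1.46. In the same list CXCL1 differed by -0.55, IL24 by -0.63 and ICAM1 by -0.52. Interferon-stimulated genes had a median of 0.14, no farther from 0 than the 0.18 of SW620 and the 0.24 of HT29, with OAS1 at 1.13 and IFI44 at 1.07.

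Genes of antigen processing were higher in 15 of 16 cases with a median of 0.25, against 0.14, 0.01 and 0.03 in the other pairs. ERAP1, a peptidase that trims peptides for HLA class I, had 11.19 on the labelled-positive and 9.84 on the labelled-negative array, a difference of 1.34. PSMB9, a subunit of the immunoproteasome, had 10.22 and 9.27 (0.95). B2M, the shared light chain of HLA class I, had 13.30 and 12.98 (0.32), a small difference that was still beyond the guide for genes of its level.

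Genes of mitosis were higher in nearly every case. Of 43 G2/M and mitosis genes 39 were higher and 4 lower, with a median of 0.33, against 0.19, 0.16 and 0.04 in the other pairs, and 16 were beyond the guide on the higher side and 1 on the lower, against 4.08% and 2.25% of all genes. CDK1, the cyclin-dependent kinase of mitotic entry, had 12.13 on the labelled-positive and 11.25 on the labelled-negative array, a difference of 0.88, against 0.51, 0.33 and 0.25 in the other lines. CCNA2, cyclin A2, had 12.70 and 11.92 (0.78), PLK1, a mitotic kinase, 13.62 and 12.95 (0.67), and KIF11, a motor of the spindle, 12.22 and 11.54 (0.68). The proliferation marker MKI67 differed by 0.53. No member reached 2-fold, so the shift was broad and small.

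Many genes of this group carry the CHR element (TTTGAA) near their start, a site bound by protein complexes that time cell cycle genes. The promoters of CDK1 and KIF11 are shown because both genes differed and hold it, with the match on either strand in capitals, from the same RefSeq table.
CDK1, chr10:60778081-60778380, plus strand: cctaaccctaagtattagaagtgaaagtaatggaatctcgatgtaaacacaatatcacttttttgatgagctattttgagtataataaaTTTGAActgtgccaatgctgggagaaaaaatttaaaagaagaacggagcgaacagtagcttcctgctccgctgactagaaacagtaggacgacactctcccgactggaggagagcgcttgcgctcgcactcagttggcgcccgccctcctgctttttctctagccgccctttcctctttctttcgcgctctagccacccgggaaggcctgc
KIF11, chr10:92592880-92593179, plus strand: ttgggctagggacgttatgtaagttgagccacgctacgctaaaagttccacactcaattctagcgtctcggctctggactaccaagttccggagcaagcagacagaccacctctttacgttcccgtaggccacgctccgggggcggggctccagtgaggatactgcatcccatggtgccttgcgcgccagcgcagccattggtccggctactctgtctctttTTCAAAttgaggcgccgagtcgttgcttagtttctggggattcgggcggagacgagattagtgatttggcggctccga
The letters were in 25 of 37 G2/M promoters with an entry (67.6%), against 10.9% of all promoters, and in 27 of 170 promoters (15.9%) of the genes at least 2-fold higher. The AP-1 letters TGANTCA were in 14 of those 170 (8.24%), against 5.25% of all, and the TATA box letters TATAAA in 26 of them (15.3%), against 7.84% of all. These shares describe the letters in the windows and were not tested.

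DNA replication and S phase genes were higher in 39 of 46 cases with a smaller median of 0.18, against 0.06, -0.01 and -0.03 in the other pairs. MCM10, which helps start replication, had 11.70 on the labelled-positive and 11.10 on the labelled-negative array, a difference of 0.60, and the helicase gene GINS2 12.95 and 12.51. Replication-dependent histone genes, chosen by symbol, were higher in 49 of 60 cases, with a median of 0.28, against 0.08, 0.22 and 0.02. That choice also took in H1-10, its antisense gene and the pseudogene H2BC19P, and H4C14 and H4C15 have identical values. Without those 3 and with the identical values counted in 1 case, an alternative chosen after seeing the data, 46 of 56 were higher with a median of 0.26. H2BC9 had 13.35 and 11.82 (1.54) and H3C7 12.10 and 10.46 (1.65). Copies of histone genes are almost the same in sequence, so a probe set may read several of them and single members are uncertain.

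Metallothionein genes, whose small proteins bind zinc and copper, were higher in 9 of 9 cases, with a median of 0.49, against -0.09, 0.02 and 0.04 in the other pairs. MT1E had 10.46 on the labelled-positive and 8.97 on the labelled-negative array (1.49), MT1F 10.89 and 9.51 (1.38), and MT2A 14.76 and 14.27 (0.49). They are near copies of each other in 1 cluster on chromosome 16, so that the 9 are not independent. NRF2 and glutathione genes were higher in 23 of 29 cases with a median of 0.11, with FTL, the ferritin light chain, at -0.70 and TXN, thioredoxin, at 0.41.

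Several groups of short RNAs and clustered genes were lower. Small nucleolar RNAs guide the chemical marking of ribosomal RNA and mostly lie in introns of host genes. Of 71 C/D box genes that passed the filter, of 115 measured, 62 were lower and 9 higher, with a median of -0.37. The medians of the other pairs were -0.05, -0.17 and -0.23, so the C/D box genes were lower there as well. Of 60 H/ACA box genes 44 were lower, with a median of -0.16, against -0.09, -0.05 and -0.14. SNORD35A had 11.52 on the labelled-positive and 12.22 on the labelled-negative array (-0.70), SNORA23 had 12.17 and 12.91 (-0.74). Of 13 host genes 11 were lower with a median of -0.21, ZFAS1 among them at -0.47, while 151 other genes with small RNA symbols, some of them host genes or pseudogenes, had a median of -0.03.

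Protocadherin beta genes, adhesion receptors of a cluster on chromosome 5, were lower in 10 of 11 cases with a median of -0.59, against 0.04, 0.12 and -0.05 in the other pairs. In the other lines only PCDHB5 and PCDHB14 in SW620, and PCDHB9 on the labelled-positive HT29 array, were above background. The medians of those pairs thus mostly compare background values. PCDHB3, PCDHB7, PCDHB11, PCDHB12, PCDHB13 and PCDHB14 were below background on both COLO741 arrays, so their differences are of uncertain size. The median is the value of PCDHB12, at 5.80 on the labelled-positive and 6.39 on the labelled-negative array. The members above background on the brighter array, PCDHB2, PCDHB5, PCDHB8, PCDHB9 and PCDHB16, were all lower. PCDHB5 had 9.79 on the labelled-positive and 10.86 on the labelled-negative array (-1.07), and PCDHB16 had 9.55 and 10.37 (-0.82). Their sequences are alike, so that a probe set may read more than 1 of them. Zinc finger genes of the ZNF series, mostly DNA-binding repressors, were lower in 302 of 419 cases with a median of -0.18, against 0.05, 0.02 and -0.04. Some of them lie on chromosome 19, which also holds the stretches of neighbouring genes with the lowest medians, described below. What part position has in the lower values of this family was not tested. ZNF749 differed by -1.01 and ZNF320 by -0.96, against which ZNF462 was higher by 0.99.

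The series title ties ABCB5 to resistance against apoptosis. The lists that bear on it stayed near the median of all genes in COLO741. Of 17 anti-apoptotic genes 8 were higher and 9 lower (median -0.03), and of 35 pro-apoptotic and death receptor genes 14 were higher and 21 lower (median -0.03). Besides BCL2A1, XIAP, an inhibitor of caspases, had 9.01 on the labelled-positive and 9.47 on the labelled-negative array (-0.46), and MCL1 differed by 0.16. TNFRSF21, a death receptor, had 11.55 and 10.53 (1.02), and FAS 7.98 and 7.17 (0.80), with its labelled-negative level below background. CYCS, cytochrome c, differed by -0.61 and BAK1, a pore protein of mitochondria, by -0.43.

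Of 30 ABC transporters of drugs and lipids, 13 were higher and 17 lower, with a median of -0.02. Beside ABCB5, ABCA2, a lipid transporter, had 9.65 on the labelled-positive and 8.59 on the labelled-negative array (1.05). ABCC2 and ABCC1, exporters of drug conjugates, differed by 0.64 and 0.53, and ABCB1, the drug efflux pump P-glycoprotein, had 9.57 and 9.80 (-0.23). Of 23 markers of tumour-initiating and stem cells 14 were higher, with a median of 0.03. The surface protein CD200 had 11.49 on the labelled-positive and 9.16 on the labelled-negative array (2.33), the retinal dehydrogenase ALDH1A1 had 10.62 and 9.01 (1.61), and PROM1 had 7.31 and 7.79 (-0.49).

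**Figure D4:**
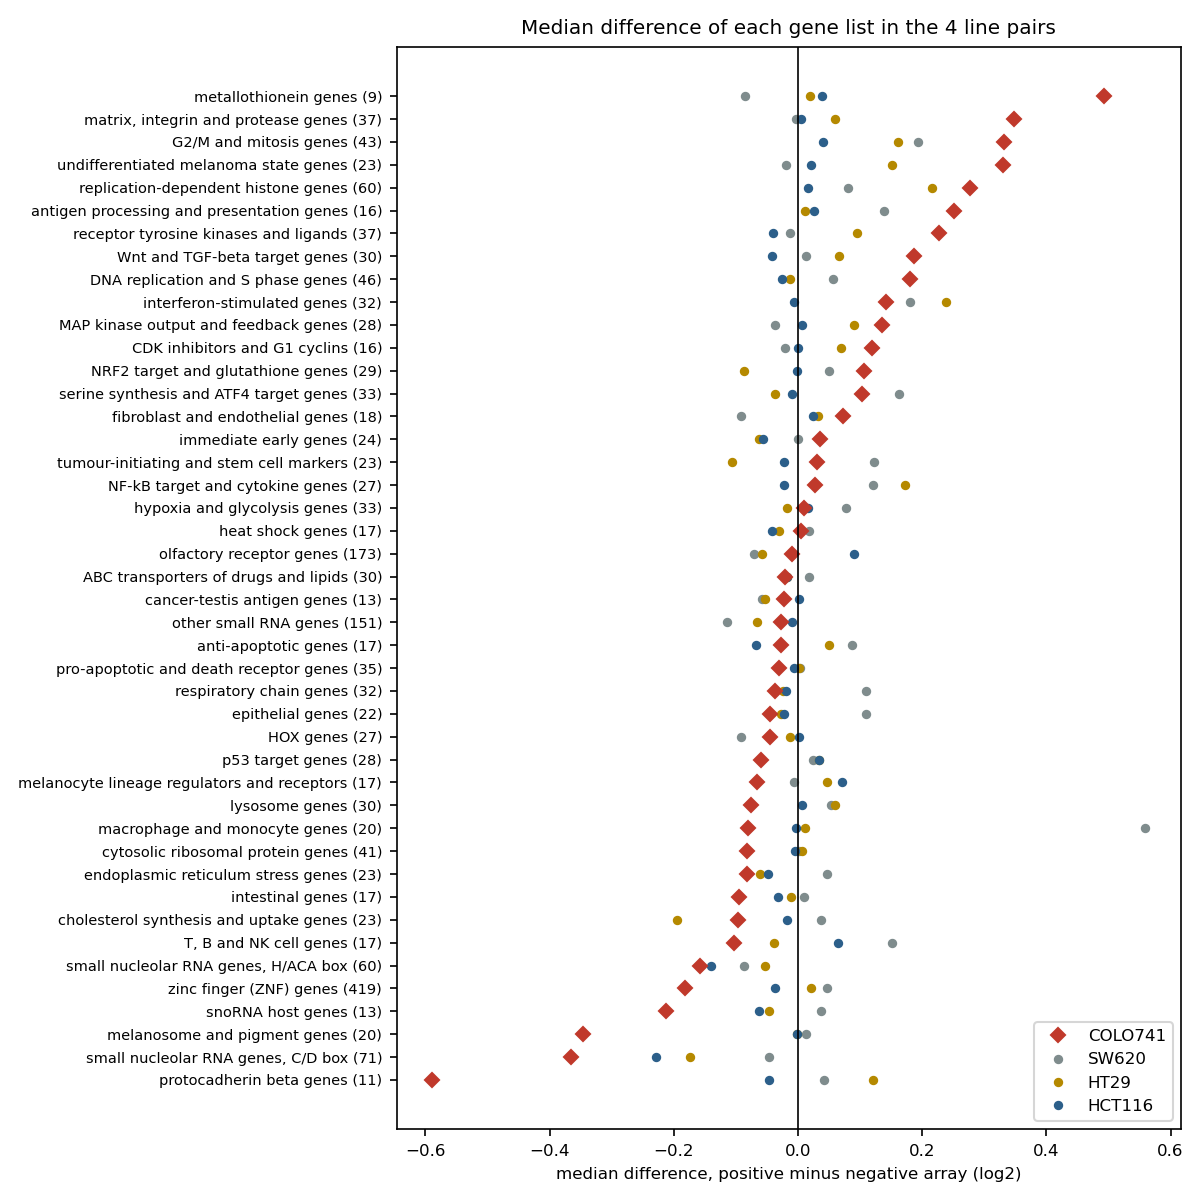
Median difference (log2, positive minus negative array) of each of 44 gene lists in COLO741 (red diamonds) and in the other 3 pairs (dots), with the number of genes that passed the filter in brackets. In 25 lists the COLO741 median was farther from 0 than in each other pair, 12 of them higher and 13 lower. The COLO741 difference was also wider over all genes (SD 0.32, against 0.24 in SW620, 0.20 in HT29 and 0.15 in HCT116). No such count of lists was made for the other lines.

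Differences in COLO741 also depended on the chromosome. Only genes with both COLO741 arrays above background were taken for this. These were 12620 genes placed on the autosomes or X, of which 44.7% were higher, with a median of -0.03. On chromosome 4, 337 of 415 genes were higher (81.2%), with a median of 0.22, and on chromosome 16, 450 of 604 (74.5%), with a median of 0.14. Chromosomes 9, 10 and 22 had medians of 0.13, 0.09 and 0.06. The lowest medians were -0.13 on chromosomes 14 and 15, -0.12 on chromosome 7, where ABCB5 lies, and -0.11 on chromosome 18. Chromosome medians had a standard deviation of 0.094 for COLO741, against 0.028 for SW620, 0.021 for HT29 and 0.008 for HCT116.

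The shift ran over whole chromosomes or long stretches of them. When genes were taken in chromosome order in 242 runs of about 50 neighbours, all 8 runs of chromosome 4 and all 12 of chromosome 16 had medians above 0, and all 11 of chromosome 7, all 16 of chromosome 17 and all 8 each of chromosomes 14 and 15 had medians below 0. Chromosome 10 was split, with 6 runs above 0 and 3 below, and chromosome 8 likewise with 4 and 4. Run medians reached 0.31 and -0.27, well under 2-fold. The lowest were on chromosome 19, at -0.27 from SIGLEC12 to MBOAT7 and -0.26 from ZFP28 to CENPBD2P. In these runs 9 and 6 of 52 genes were higher. Of the 415 genes of chromosome 4, 24 were at least 2-fold higher (5.78%). Among all 12634 genes with both COLO741 arrays above background, 153 were.

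**Figure D5:**
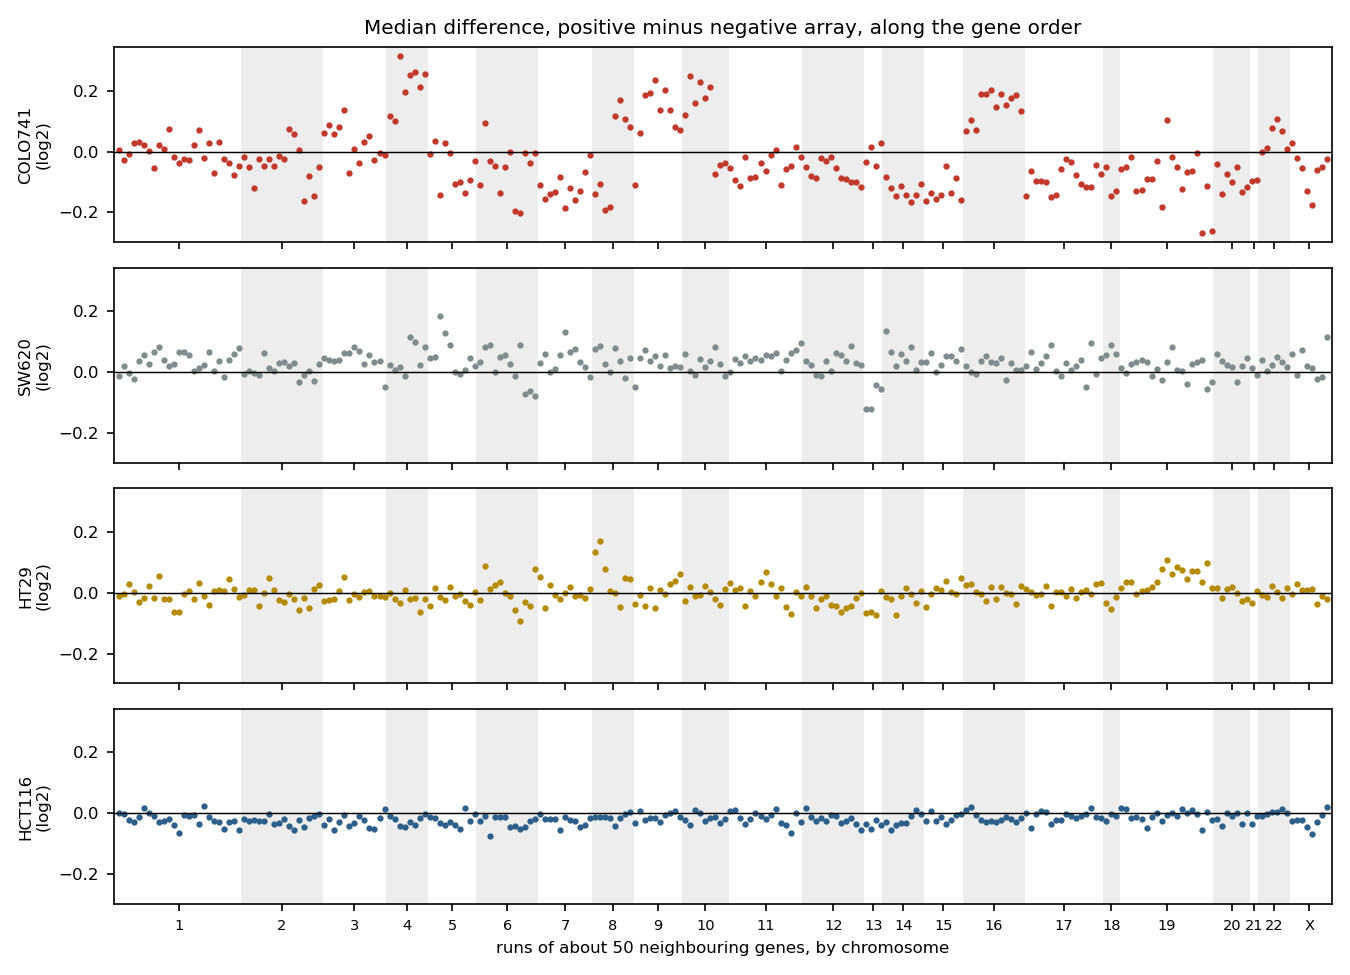
Median difference (log2, positive minus negative array) of runs of about 50 neighbouring genes in chromosome order, with 1 panel per line and each point 1 run. In COLO741 runs shift together by chromosome, between -0.27 and 0.31, and in the other lines they stay closer to 0.

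Several members of the lists lie on shifted chromosomes, CDK1 and KIF11 on 10, CCNA2 and CENPE on 4, and PLK1 and the metallothioneins on 16. With each chromosome's median subtracted, an alternative chosen after seeing the data, 41 of the 43 G2/M genes were higher with a median of 0.37, and the median of the pigment genes was -0.31. It was 0.45 for the undifferentiated state, 0.37 for matrix genes, 0.35 for metallothioneins, -0.32 for C/D box genes, -0.53 for protocadherins and -0.14 for zinc finger genes. The subtraction takes 1 value per chromosome, -0.07 for chromosome 19, and so leaves shifts of shorter stretches in place. The difference of ABCB5 became -1.16. What the shift by chromosome has to do with single genes was not tested beyond this. At least 2-fold apart were then 228 higher and 35 lower genes.

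MicroRNA genes are read here as precursors, and 43 of the 96 that passed the filter were above background on the brighter array. Of these, 20 were higher, with a median close to 0, so the class did not lean. The 4 shown were chosen after their values were seen, the 3 at least 0.5 log2 units apart and MIR211, which lies within the pigment gene TRPM1. Their mature sequences from RefSeq are given with the seed, bases 2 to 8, in capitals.
hsa-miR-221-3p: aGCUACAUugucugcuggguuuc
hsa-miR-21-5p: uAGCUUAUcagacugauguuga
hsa-miR-15a-5p: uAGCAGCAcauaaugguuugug
hsa-miR-211-5p: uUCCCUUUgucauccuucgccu
MIR221, of a microRNA known to target the receptor KIT, had 7.83 on the labelled-positive and 7.22 on the labelled-negative array, a difference of 0.61. MIR21, a microRNA often high in tumours, had 8.51 and 7.93 (0.58), and MIR15A 8.31 and 7.79 (0.52). In each of the other lines these 3 genes were lower on the labelled-positive array, with differences of -0.04 to -0.39. MIR211 had 8.38 on the labelled-positive and 8.58 on the labelled-negative array (-0.21), beside the -1.02 of TRPM1. None of the 4 differences was beyond the level-matched guide, and the labelled-negative level of MIR221 was below background. No 2 of the 4 share a seed.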

How the data were processed

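Values came as deposited by the authors, on a log2 scale read from their range of 2.99 to 15.24, for 33297 probe sets of 8 arrays. The tool, per the submitters' processing notes, was Affymetrix Expression Console, whose version and settings the sources used here do not give. Array medians were 8.03 to 8.10, and the values were used without further normalization. The number of arrays, 1 a side, limits the precision.

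Of the probe sets, the platform annotation gave 1 gene for 19460, several for 1754 and none for 12083. Symbols were updated by gene identifier to GRCh38.p14 for 19429 and left as given for 31. Where several probe sets read a gene (769 genes), the brightest was used, and genes under the olfactory receptor median of 5.73 were dropped. The COLO741 difference was described without a test. Its guide is the 99th percentile of the size of the difference in the other 3 pairs, in 20 bins of level. The test against the other lines used limma 3.58.1 in R 4.3.3, with moderated variances (2 residual and 3.38 prior degrees of freedom), two-sided, after a check on simulated data. The block by line comes from the labels: the arrays of a pair carry the same line name. The p-values of the test rest on how the difference varies among the SW620, HT29 and HCT116 pairs, a spread that may be technical. The COLO741 pair adds nothing to it, so the spread of that pair is not measured.

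By rule the text names ABCB5, the markers, the 15 largest differences per direction with the brighter COLO741 array above the background level, up to 5 members of largest difference from each of the 44 lists, and up to 10 genes per direction by smallest p in the test. Other list members were picked after their values were seen. The comparison and all lists were chosen with earlier results of these data known. Alternatives changed the normalization, filter, probe set rule, threshold, level trend, floor on dim values, variance model and line pairs, and chromosome medians were added to them after seeing the data. Tables and plots used Python 3.11.15, pandas 2.3.3, numpy 2.4.6 and matplotlib 3.10.9.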

Additional observations from a re-analysis of the deposited data

Results flagged for a closer look

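These genes were picked out because the test of the difference itself, COLO741 against the mean of the other 3 lines with limma, passed at an adjusted p under 0.05. Each value is the COLO741 difference minus that mean, in log2 units, and 1 COLO741 pair stands behind each. Without the HCT116 pair 0 genes passed, at a lowest adjusted p of 0.0527.

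Among enzymes and carriers, the excess in COLO741 was 2.84 for PSAT1, 2.83 for PM20D2, 2.35 for the amino acid carrier SLC38A1, 2.53 for UGT8, 2.41 for the carboxypeptidase CPA4, 1.70 for ALDH1A1 and 1.32 for the peptide trimmer ERAP1. ATL3 had 2.49, the membrane traffic protein MAL2 1.30 and the metallothionein MT1E 1.48. Among receptors and surface proteins it was 2.54 for NLGN4X, 2.52 for CSF2RA, 2.60 for the interleukin 7 receptor IL7R, 2.14 for CD200, 2.36 for GPC6 and 1.65 for KDR. Matrix genes were MMP16 at 2.17 and COL4A2 at 1.42, and among nuclear and testis genes PBX3 had 2.41, MAGEC2 2.57, ZNF37A 2.22, ZNF597 2.16 and the histone gene H2BC13 1.67.

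Below the other lines were IRF4 at -1.97, PCDH20 at -1.57, HOXB13 at -1.49, DOK5 at -1.44 and IL6R at -1.17. Of all 57 genes that passed, 39 were above background on at least 1 array of the other lines. The rest, with NLGN4X, MAGEC2, GPC6, KDR, MMP16, IRF4, PCDH20 and DOK5 among them, were at background on every array of the other lines, so their values set COLO741 against differences between background values. In COLO741 itself the labelled-positive array was below background for DOK5, and the labelled-negative array was below background for PM20D2, PBX3, ZNF597, GPC6, UGT8, KDR, IL7R, H2BC13 and MMP16, so the size of these differences is uncertain.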

How the results depend on the processing

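The difference of ABCB5 in COLO741 stayed between -1.29 and -1.16 in all its alternatives. Counts of genes at least 2-fold apart changed with the threshold. At 1.5-fold they were 679 higher and 272 lower, of which 652 and 252 exceeded each other pair, and at 3-fold 62 and 2, all of them beyond each other pair. Otherwise they ran between 177 and 240 higher and between 35 and 51 lower, lowest with dim values set to the background level. Lists farther from 0 than in each other pair numbered 22 to 26.

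The count of genes apart from the other lines was less steady than these. It was 52 higher and 5 lower with the block by line, and 0 and 0 with no replicate block, which pairs no arrays (228 genes at an unadjusted p under 0.05, lowest limma adjusted p = 0.197). Leaving out a line pair gave 0 to 68 higher and 0 to 7 lower, the lowest without HCT116 and the highest without HT29. Ordinary least squares gave 1 and 0, with 1835 genes at an unadjusted p under 0.05, and a variance prior with a trend gave 273 and 55. The strict filter gave 86 and 15. The lower count was 9 with centred arrays and 9 with no filter. The cause of these moves was not tested, beyond the fewer genes that the strict filter tests. In the COLO741 comparison alone, 1 array a side leaves the error unknown, and genes near background have differences of uncertain size.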

Other observations

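Of groups not described above, lysosome genes, some of them shared with melanosomes, were lower in 19 of 30 cases, with a median of -0.08, against medians of 0.05 (SW620), 0.06 (HT29) and 0.01 (HCT116). Over all genes 54.4% were lower in COLO741. The protease gene CTSK had 11.88 on the labelled-positive and 12.77 on the labelled-negative array, a difference of -0.89, and the proton pump subunit gene ATP6V0A1 had 12.17 and 12.82, a difference of -0.65. With chromosome medians subtracted the lysosome list's median was -0.01, with 15 members higher and 15 lower. Cytosolic ribosomal protein genes were lower in 27 of 41 cases, with a median of -0.08, and 0 of them exceeded the level-matched guide.

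Testis antigen genes gave no common direction, with 6 of 13 higher and a median of -0.02. CSAG1 had 9.46 on the labelled-positive and 7.77 on the labelled-negative array (1.69), MAGEC1 had 11.44 and 11.88 (-0.44), and PRAME had 11.47 and 11.49 (-0.02). TSPAN10, a tetraspanin gene with the M-box letters in its promoter window, had a difference of -1.16 and was picked after its value was seen.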
